A study of Solanum lycopersicum with 12 samples.

Results

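Among 10101 tomato probe sets, 26 (0.257%) had a lower signal after salt in the cultivar Moneymaker while their mean signal in PI365967 stayed near its unstressed level. They were picked by their values: the group mean under salt lay at least 1 below the unstressed mean in log2 in Moneymaker (a fall of at least 2-fold), and within 0.3 of the unstressed mean in either direction in PI365967. All 12 arrays entered these means, so both salt effects and their difference chose the probe sets and are described below without a test. Only 3 of the 26 carry a gene name in the array's annotation: PETE (plastocyanin), TGAS118 (a defensin-like protein) and AUREA (an enzyme that makes the chromophore of phytochrome). The other 23 are called by their probe set identifiers.

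The plants were taken whole at 6 leaves, and their RNA was measured on an Affymetrix tomato array. Moneymaker is a cultivated tomato, and PI365967 is known as a salt-tolerant wild tomato, although the labels give Solanum lycopersicum for all samples. Hydroponic plants of each genotype stood for 5 h in quarter-strength Hoagland nutrient solution with 0 mM NaCl (unstressed) or 200 mM NaCl (salt), which gives 4 groups of 3 arrays, and neither the labels nor the design names a transgene or mutation. RNA of 3 plants was pooled for each array, so the replicates are separate pools, and single plants cannot be seen.

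Plastocyanin is a small copper protein of the thylakoid lumen that carries electrons from the cytochrome b6f complex to photosystem I, and its gene is highly active in green tissue. AUREA encodes phytochromobilin synthase, which makes the bilin pigment that lets phytochromes sense red and far-red light, and tomato aurea mutants are pale and respond poorly to light. TGAS118 is listed in RefSeq also as DEFL2, for defensin-like, and is known as a tomato transcript that rises with gibberellin. Defensins are small secreted proteins rich in cysteine, known mostly from plant defence.

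Replicate arrays of a group were alike, with a Pearson correlation over all probe sets between 0.9909 and 0.9946. Levels below are quantile-normalized log2(intensity + 16), a scale whose lowest possible value before normalization is 4, the log2 of the added 16. A salt effect is the salt mean minus the unstressed mean on that scale, and the number of arrays limits its precision. Values after ± are standard errors from limma's fit to all 12 arrays (n = 3 per group), and intervals are 95% intervals from the same fit. Whole-plant RNA cannot tell fewer cells of a type from less RNA per cell. A level that differs between genotypes cannot be told apart from a difference in how well their transcripts match the probes.

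PETE was the brightest of the 26 without salt in Moneymaker. Its levels in unstressed Moneymaker were 12.32, 12.10 and 12.55, and under salt they were 11.19, 11.39 and 11.13. In unstressed PI365967 the arrays read 12.84, 12.77 and 12.88, and under salt 12.66, 12.57 and 12.50. All 3 Moneymaker salt arrays lay below every other array, and all 6 PI365967 arrays lay near or above the Moneymaker controls. The fall in Moneymaker was 2.12-fold (−1.09 ± 0.11), against −0.25 ± 0.11 in PI365967. There the interval ran from −0.50 to −0.01, wholly below 0, and the salt arrays all lay below the unstressed ones. PETE thus read slightly lower under salt in PI365967 too, although limma did not call this effect after adjustment.

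The levels of TGAS118 were 9.50, 9.98 and 10.05 in unstressed Moneymaker and 8.21, 8.41 and 8.85 under salt, a 2.55-fold fall (−1.35 ± 0.33). In PI365967 they were 9.61, 9.70 and 9.71 without salt and 9.95, 10.63 and 8.97 with it. The Moneymaker groups did not overlap, whereas the PI365967 salt arrays lay both above and below all 3 of their controls. The mean effect of 0.17 ± 0.33 in PI365967 therefore rests on arrays that spread widely (SD 0.83), and its interval ran from −0.56 to 0.90. It became −0.22 without replicate 2 of the PI365967 salt group and 0.61, outside the limit of the rule, without replicate 3.

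AUREA was dim in all groups. It read 6.65, 6.56 and 6.58 in unstressed Moneymaker and 5.59, 5.49 and 5.70 under salt, without overlap. In PI365967 it read 5.75, 6.17 and 6.22 without salt and 6.19, 5.60 and 5.84 with salt, with overlap between these groups; 5 of these arrays lay between the 2 Moneymaker groups and 1 within the range of Moneymaker under salt. Its effect was −1.005 ± 0.15 in Moneymaker and −0.17 ± 0.15 in PI365967, with an interval from −0.51 to 0.16. It had the smallest Moneymaker fall of the 26.

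**Figure D1:**
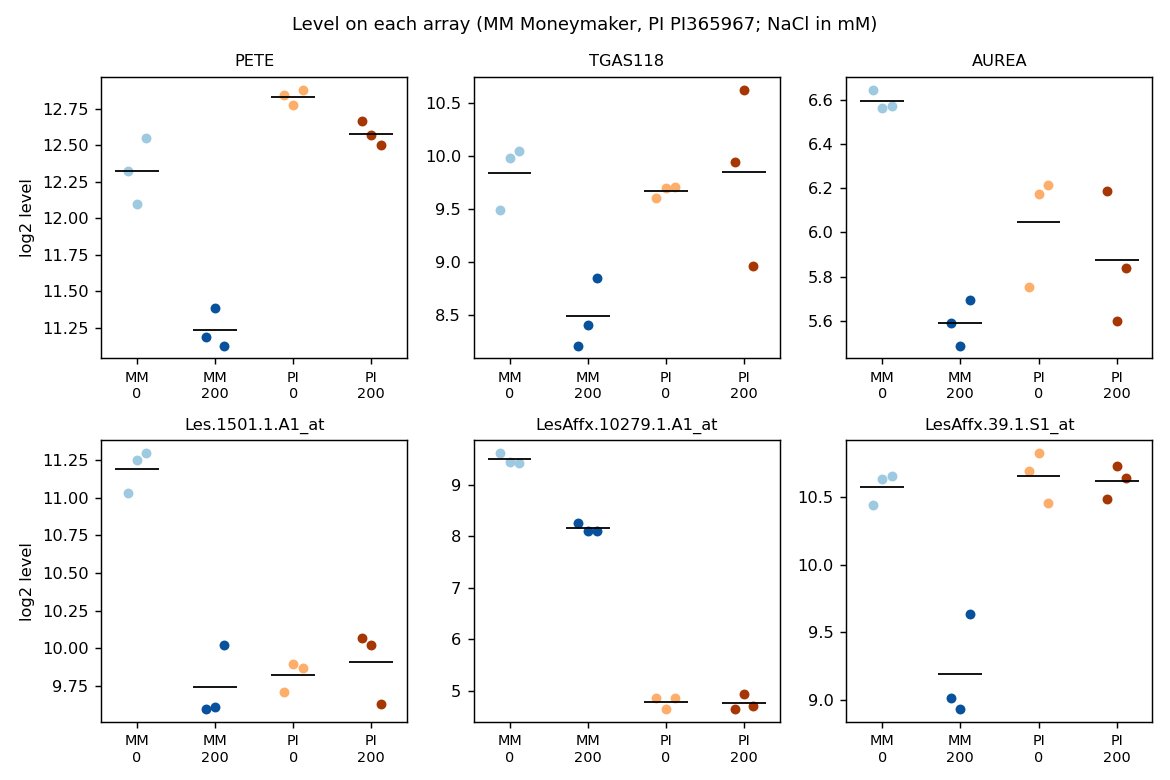
Level on each array (log2 of intensity + 16, quantile normalized; the vertical axes differ) for 3 named and 3 unnamed probe sets, by genotype and NaCl in mM; points are arrays and lines are means of 3. PETE and LesAffx.39.1.S1_at stay high in PI365967, Les.1501.1.A1_at lies near the Moneymaker salt level in both PI365967 groups, and LesAffx.10279.1.A1_at lies at the bottom of the scale there.

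Across the 26, the Moneymaker effect ran from −1.90 to −1.005 with a median of −1.17, a 2.25-fold fall, and the PI365967 effect ran from −0.30 to 0.27 with a median of −0.12. Over all probe sets the medians were −0.05 and 0.00. In PI365967 18 effects lay below 0 and 8 above. The Moneymaker salt arrays lay below all unstressed arrays for all 26, against 34.8% of all probe sets, which the rule makes likely. Limma called the fall in Moneymaker for all 26, against 31.0% of all probe sets called lower, and called none of the 26 in PI365967, against 47.3% called there in either direction. Since the rule used both contrasts, nothing is read from these counts.

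**Figure D2:**
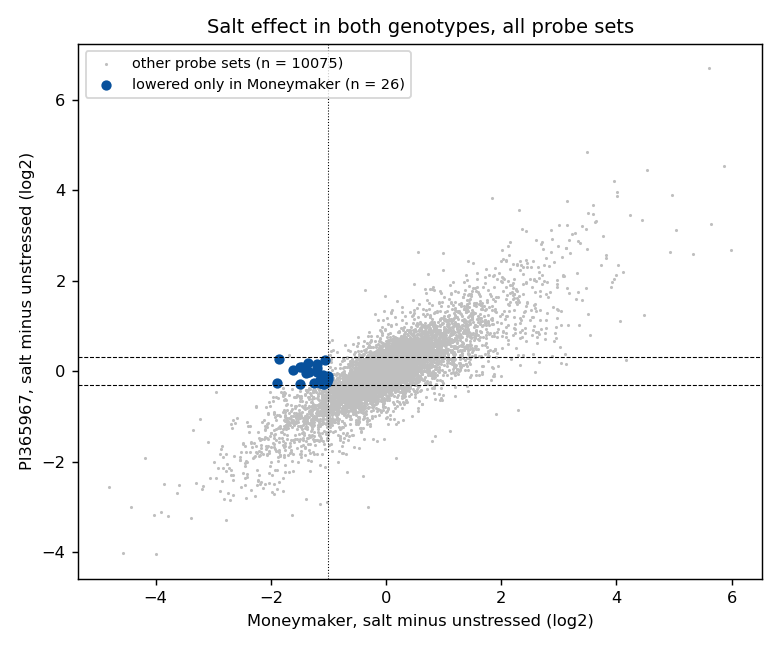
Salt effect (log2, salt minus unstressed) in Moneymaker on the horizontal axis and in PI365967 on the vertical axis for 10101 probe sets; dotted and dashed lines are the limits of −1 and ±0.3, and the 26 chosen probe sets are blue. The 26 sit at the edge of a cloud that runs along the diagonal, with effects of −1.90 to −1.005 on the horizontal axis.

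The 26 form the edge of a continuous range. Of 714 probe sets that fell at least 2-fold in Moneymaker, 410 (57.4%) also fell at least 2-fold in PI365967, 277 (38.8%) fell there by less than 2-fold but more than 0.3, and 1 (Les.417.1.S1_at, −1.69 and 0.35) lay above 0.3 there. The remaining 26 make up 3.64%. By the mirrored rules, 90 probe sets were raised at least 2-fold only in Moneymaker and 16 were lowered at least 2-fold only in PI365967.

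Around the limit of −1 in Moneymaker, AUREA (−1.005) and Les.4337.1.S1_at (−1.01) lay just inside, and Les.4336.1.S1_at and LesAffx.56820.1.S1_at (both −0.99) just outside. At the lower limit in PI365967, Les.2942.2.S1_at (−0.30) and Les.3068.2.S1_at (−0.29) were kept, and LesAffx.66458.1.A1_at and LesAffx.41518.1.S1_at (both −0.33) were not. Les.3986.1.S1_at (0.27) and LesAffx.56547.2.S1_at (0.25) lay closest to the upper limit from inside.

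A mean near 0 in PI365967 does not show that salt left these transcripts unchanged. The 95% interval of the PI365967 effect stayed within −0.3 to 0.3 for 1 of the 26, LesAffx.10279.1.A1_at, and the widest bounds over the set were −0.87 and 0.97. That probe set lay at the bottom of the scale in PI365967 (4.80 and 4.77), where a fall could hardly show, so its narrow interval does not show an unchanged transcript. The interval lay wholly below 0 for 4 (PETE, Les.2942.2.S1_at, Les.3068.2.S1_at and LesAffx.19924.1.S1_at), and for none did it reach −1. The PI365967 salt and unstressed arrays overlapped for 21 probe sets, lay lower under salt for 4 and higher for 1; of all probe sets, 56.4% had no overlap. The standard errors were also larger than usual, with a median of 0.163 against 0.114 over all probe sets. Each SE pools the spread of all 4 groups, so it does not measure the spread within PI365967 alone. Les.3986.1.S1_at, with the bound of 0.97, had SDs of 0.17 (unstressed) and 0.06 (salt) in PI365967 and 0.88 in unstressed Moneymaker. Its PI365967 salt arrays all lay above the unstressed ones.

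**Figure D3:**
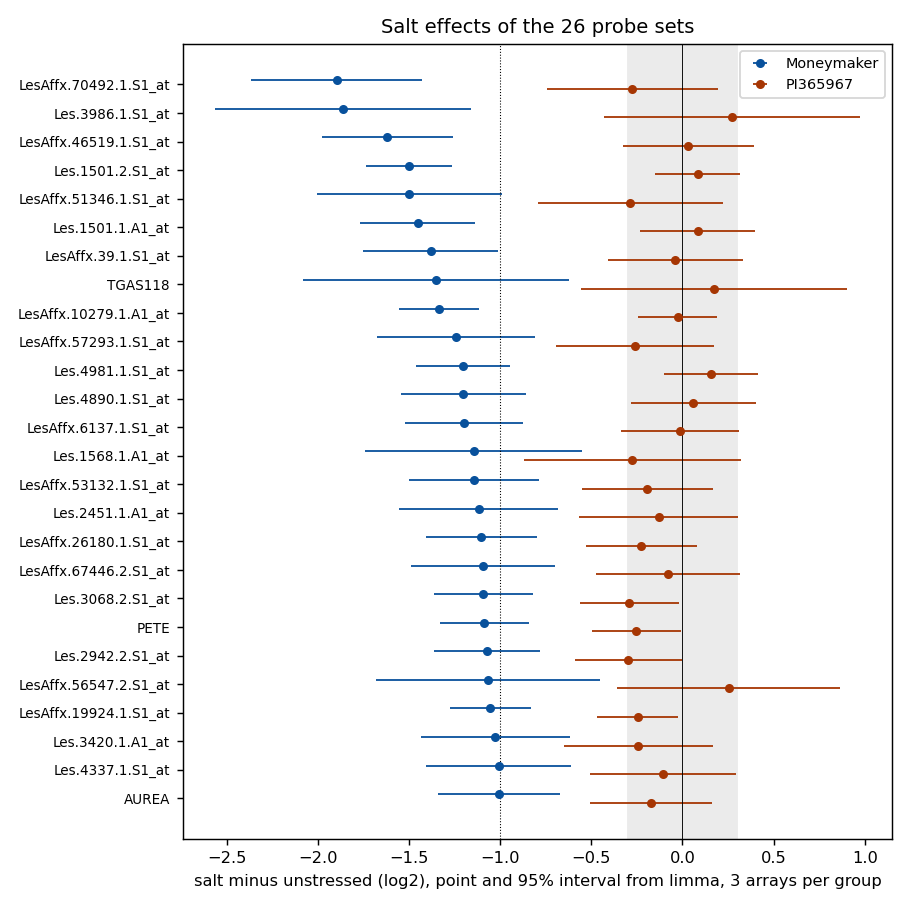
Salt effect (log2) with its 95% interval from limma (3 arrays per group) for the 26 probe sets in Moneymaker (blue) and PI365967 (red); the grey band marks −0.3 to 0.3 and the dotted line −1. Most PI365967 intervals reach out of the band, and those of Les.3986.1.S1_at and TGAS118 reach highest, to 0.97 and 0.90. Each interval rests on a spread pooled over the 4 groups.

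The rule set no limit on where PI365967 stands relative to Moneymaker, and the 26 divided there. For 14, the unstressed PI365967 mean lay nearer to or above the unstressed Moneymaker mean, and for 12 it lay nearer to or below the Moneymaker salt mean. This split at the midpoint of the 2 Moneymaker means was chosen after the values were seen. It uses the same arrays as the rule, so it is not independent of it and is a description. PETE and TGAS118 were among the 14. AUREA was counted among the 12, but its unstressed PI365967 mean of 6.05 lay within 0.05 of the midpoint of 6.09, less than the SE, so its side is undetermined.

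In 13 of the 14, PI365967 stood nearer the unstressed than the salt level of Moneymaker in both treatments. For these 13 the unstressed PI365967 mean lay 0.49 or more above the midpoint. That is further than the rule lets salt move the PI365967 mean, so their side under salt was fixed by the choice and nothing is read from the count. The exception, LesAffx.51346.1.S1_at, had means of 8.60 and 7.10 in Moneymaker and 8.06 and 7.77 in PI365967, so that under salt PI365967 lay 0.08 on the Moneymaker salt side of the midpoint. LesAffx.39.1.S1_at had levels of 10.44, 10.63 and 10.66 in unstressed Moneymaker, 9.02, 8.94 and 9.63 under salt, 10.69, 10.82 and 10.46 in unstressed PI365967, and 10.48, 10.73 and 10.64 in PI365967 under salt. The 3 Moneymaker salt arrays stood below the other 9, which overlapped one another. LesAffx.6137.1.S1_at had the same mean of 7.09 in both unstressed groups and 7.08 in PI365967 under salt, against 5.89 in Moneymaker under salt. Les.4890.1.S1_at had means of 9.25 and 8.05 in Moneymaker and 9.37 and 9.43 in PI365967, and Les.4981.1.S1_at had 9.94 and 8.73 against 10.22 and 10.37.

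LesAffx.46519.1.S1_at was higher in PI365967 than in Moneymaker in both treatments. It read 7.71, 7.47 and 7.78 in unstressed Moneymaker, 5.77, 6.14 and 6.19 under salt, 8.86, 8.44 and 8.81 in unstressed PI365967, and 8.53, 9.02 and 8.64 under salt. No array of one genotype overlapped an array of the other, and PI365967 exceeded Moneymaker 2.07-fold without salt and 6.49-fold under salt. Les.3986.1.S1_at had the widest spread among unstressed Moneymaker arrays (7.99, 7.45 and 9.18) against 6.47, 6.30 and 6.27 under salt. Its PI365967 arrays ran from 7.73 to 8.23, so its fall of −1.86 ± 0.32 owes part of its size to 1 unstressed array.

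In the other 11, PI365967 without salt stood on the Moneymaker salt side by 0.21 or more. Les.1501.1.A1_at and Les.1501.2.S1_at share a cluster number of the array's design and may read 1 gene. The first read 11.03, 11.25 and 11.30 in unstressed Moneymaker and 9.60, 9.61 and 10.02 under salt, then 9.71, 9.89 and 9.87 in unstressed PI365967 and 10.07, 10.02 and 9.63 under salt. Salt thus took Moneymaker from a level above all other arrays to the range in which PI365967 stood with or without salt. The second moved in parallel, by −1.499 ± 0.11 in Moneymaker and 0.08 ± 0.11 in PI365967, and without salt PI365967 stood 2.59-fold and 2.63-fold below Moneymaker on the 2 probe sets.

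LesAffx.70492.1.S1_at had the largest Moneymaker fall, 3.72-fold (−1.90 ± 0.21). It read 9.16, 9.30 and 8.68 without salt and 7.25, 6.92 and 7.30 under salt in Moneymaker, against 8.12, 7.52 and 7.76 without salt and 7.14, 7.67 and 7.77 under salt in PI365967. The PI365967 arrays lay between the 2 Moneymaker groups or within the range of the salt group. LesAffx.53132.1.S1_at was the brightest of the 12, with means of 12.09 and 10.95 in Moneymaker and 11.31 and 11.12 in PI365967.

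For part of the 12 the PI365967 signal lay so low that a fall could hardly have shown. LesAffx.10279.1.A1_at had deposited intensities of 1096, 614 and 720 in unstressed Moneymaker and 302, 199 and 260 under salt, against 16.0, 8.80 and 11.6 in unstressed PI365967 and 8.03, 11.8 and 11.8 under salt. The log2 difference without salt, PI365967 minus Moneymaker, was −4.69, a 25.8-fold gap as measured that the added 16 makes smaller. This probe set, Les.1568.1.A1_at and Les.4337.1.S1_at had both PI365967 means under 4.97, the 10th percentile of all group means, as 8.84% of all probe sets did. Les.1568.1.A1_at (5.66 and 4.52) and Les.4337.1.S1_at (5.40 and 4.39) were also dim in Moneymaker and reached the bottom of the scale under salt, where their falls are understated by the added 16. Les.3420.1.A1_at (8.71 and 7.69 in Moneymaker, 6.27 and 6.03 in PI365967), Les.2451.1.A1_at and LesAffx.67446.2.S1_at stayed above that percentile in PI365967. Without salt they were lower there than in salt-treated Moneymaker, as was LesAffx.57293.1.S1_at by little (5.74 against 5.77).

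**Figure D4:**
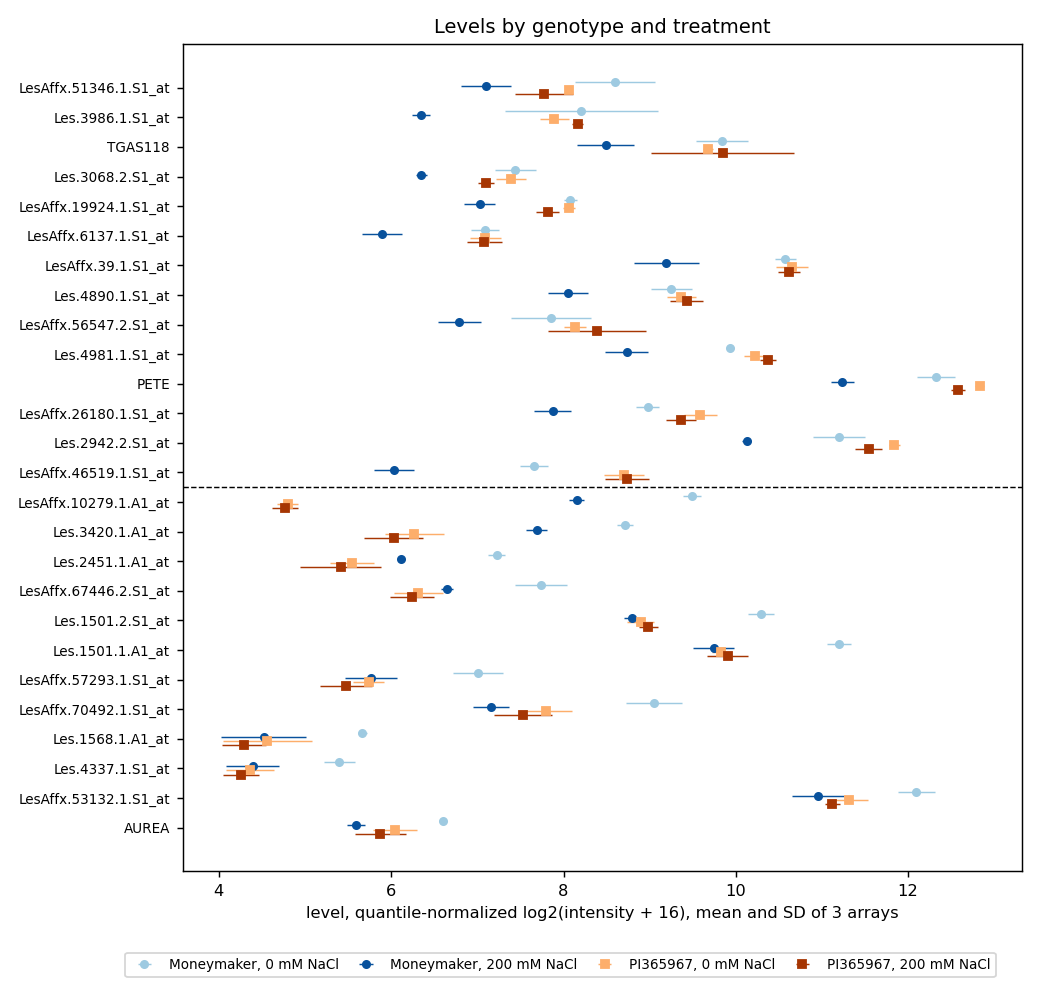
Level (quantile-normalized log2 of intensity + 16) of each of the 26 probe sets, mean and SD of 3 arrays, by genotype and NaCl. Above the dashed line are the 14 whose unstressed PI365967 mean was nearer to or above unstressed Moneymaker, and below it the 12 nearer to or below salt-treated Moneymaker, with PI365967 at 4.80 and 4.77 for LesAffx.10279.1.A1_at.

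Limma's genotype difference averaged over both treatments (PI365967 minus Moneymaker) was called, at an adjusted p under 0.05 over all probe sets, as higher in PI365967 for 12 of the 26 (46.2%; background 29.3%) and as lower for 11 (42.3%; background 25.1%). Its noise is uncorrelated with that of the salt effects, but its value is not free of the rule: the stronger fall in Moneymaker alone raises it, here by at least 0.39, so the calls of higher are partly set by the choice of probe sets and nothing is read from their share. LesAffx.46519.1.S1_at had the largest positive value (1.87 ± 0.12) and LesAffx.10279.1.A1_at the largest negative one (−4.04 ± 0.07, adjusted p = 5.05e-12), followed by Les.3420.1.A1_at (−2.05 ± 0.13, adjusted p = 2.44e-07). The value for PETE was 0.92 ± 0.08, of which the difference without salt made 0.51. TGAS118 (0.59 ± 0.24, adjusted p = 0.0513), AUREA (−0.13 ± 0.11, adjusted p = 0.325) and LesAffx.51346.1.S1_at (0.07 ± 0.16, adjusted p = 0.753) were not called. The median of the 26 was 0.21, against 0.03 over all probe sets.

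Without salt, limma called PI365967 lower for 12 of the 26 (46.2%; background 17.7%), higher for 4 (15.4%; background 19.2%) and made no call for 10. Under salt it called PI365967 higher for 14 (53.8%; background 26.6%) and lower for 3 (11.5%; background 22.5%). These 2 contrasts share the arrays that the rule used, so scatter that raised unstressed Moneymaker arrays would lower the difference without salt, and the rise from one contrast to the other is set by the rule; the counts are a description. The median difference went from −0.43 without salt to 0.71 under salt, against 0.02 and 0.03 over all probe sets. Of the 410 probe sets lowered at least 2-fold in both genotypes 19.0% were called lower in PI365967 without salt, and of the 277 lowered less in PI365967 25.3% were. Without the 3 probe sets at the bottom of the scale in PI365967, a choice made after seeing the data, 9 were called lower and 4 higher without salt.

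The 26 were dimmer than the 714 that fell at least 2-fold in Moneymaker, of which they are part. Their median unstressed level was 8.66 in Moneymaker and 8.06 in PI365967, against 9.48 and 9.53 for the 714 and 8.80 in both for all probe sets, and it ran from 5.40 to 12.32 in Moneymaker. Both PI365967 means lay under the 10th percentile for 11.5% of the 26, against 0.98% of the 714 and 8.84% of all. The difference was not tested. It is partly set by the rule, since a probe set that low in PI365967 can hardly show a fall there. None of the 26 had an identifier ending in _x_at, _s_at or _a_at, the suffixes of probe sets that can take signal from several transcripts, which 277 of all 10101 have.

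A shared cluster number does not show that probe sets read the same transcript. Other probe sets with the cluster number of a member were measured on the same arrays. Besides the Les.1501 pair, 5 members had 9 such partners, none of them in the set. The partners of Les.2942.2.S1_at (−1.07 and −0.30 in Moneymaker and PI365967) were nearly alike, with −0.99 and −0.30 for Les.2942.3.S1_at and −0.999 and −0.45 for Les.2942.1.S1_at, and they missed the limits by little. Les.3068.1.S1_at fell in PI365967 by 0.61 and in Moneymaker by 1.02, where its partner in the set had −0.29 and −1.09, while the dim Les.3068.3.A1_at had 0.01 in Moneymaker and −1.02 in PI365967. LesAffx.10279.1.S1_at, dim in all groups, had −0.79 and −0.51. LesAffx.56547.2.S1_at (−1.07 and 0.25) had partners with other patterns: LesAffx.56547.1.S1_at had −0.09 and −0.08, and the other 2 had 0.67 to 0.96 in both genotypes. Les.4337.1.A1_at lay at the bottom of the scale throughout.

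PETE was the only one of the 26 in any of 22 gene lists laid down as symbol patterns, of which 21 matched a measured probe set. Its list, light harvesting and photosynthesis, had 7 other probe sets, of which limma called 6 lower and none higher in Moneymaker (31.0% and 26.0% of all probe sets) and 4 lower and none higher in PI365967 (24.0% and 23.3%). The median effect of these 7 was −0.605 in Moneymaker and −0.22 in PI365967. CAB5, a chlorophyll a/b-binding antenna protein gene, fell more than PETE in Moneymaker (−1.24 ± 0.17) and also fell in PI365967 (−0.76 ± 0.17, limma adjusted p = 0.00324). CAB4 fell by 0.64 ± 0.07 and 0.39 ± 0.07 in the 2 genotypes.

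The oxygen-evolving complex genes PSBP, PsbQ and PSBO fell in Moneymaker by 0.60, 0.65 and 0.46. In PI365967 PsbQ fell by 0.26, while the values of PSBP (−0.14) and PSBO (−0.18) were not called. Limma's difference of salt effects, which did not choose this gene, was called for PSBP (0.46 ± 0.11, adjusted p = 0.0167). It was not called for CAB5 (0.48 ± 0.24, adjusted p = 0.215), CAB4 (0.26 ± 0.10, adjusted p = 0.111) or CAB6A (0.34 ± 0.12, adjusted p = 0.0819). Nor was it called for PsbQ (0.39 ± 0.12, adjusted p = 0.0532) or PSBO (0.28 ± 0.11, adjusted p = 0.129). PSBR, a photosystem II protein gene, had salt effects of −0.03 in Moneymaker and 0.06 in PI365967. Their difference was not called either (0.09 ± 0.08, limma adjusted p = 0.551). All 7 estimates of the salt effect other than that of PETE were lower in Moneymaker than in PI365967.

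**Figure D5:**
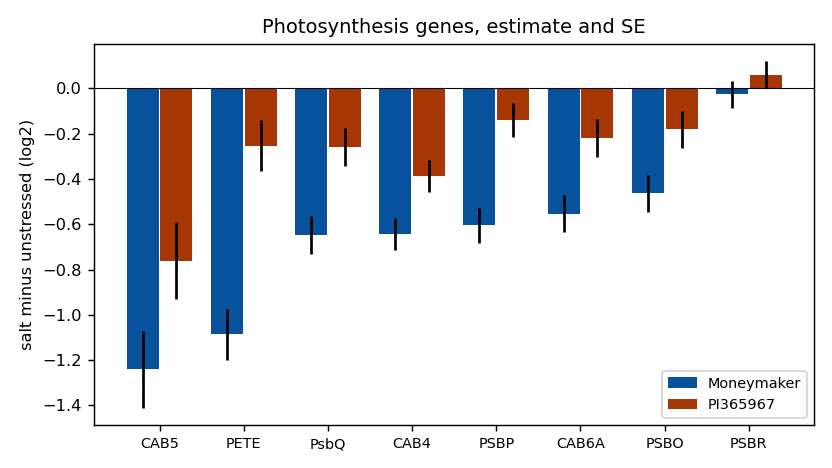
Salt effect (log2, salt minus unstressed; bars start at 0) with SE for 8 photosynthesis probe sets in Moneymaker (blue) and PI365967 (red), 3 arrays per group. PETE and CAB5 have the largest falls in Moneymaker, at −1.09 and −1.24, and the PI365967 bar is shorter for CAB5, at −0.76, and for PETE, at −0.25.

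Genes of light perception, a list added after the values were seen, gave context for AUREA. Of 5 probe sets other than that of AUREA, limma called 2 lower in each genotype and none higher, against 31.0% of all probe sets lower in Moneymaker and 24.0% in PI365967. PHYA, a phytochrome apoprotein gene, fell by 0.50 ± 0.11 in Moneymaker and 0.32 ± 0.11 in PI365967, on a probe set whose suffix _a_at marks possible signal from several transcripts. The blue-light receptor gene Cry1b fell by 1.17 ± 0.10 and 1.54 ± 0.10, more in PI365967 than in Moneymaker as estimated (limma difference −0.38 ± 0.14, adjusted p = 0.107). CRY2 (0.09 and −0.04) and both CRY1A probe sets (−0.15 to 0.08) were not called.

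Markers of leaf and root and the array's 25S ribosomal RNA control also differed between treatments. The 7 leaf markers other than PETE are the same 7 photosynthesis probe sets described above, so they add no separate genes. The summed level of 7 leaf markers other than PETE was 15.90 to 16.07 in unstressed Moneymaker and 15.44 to 15.55 under salt, and 16.12 to 16.15 and 15.87 to 15.94 in PI365967; that of 9 root markers was 14.23 to 14.26 and 13.61 to 13.74 in Moneymaker, and 14.07 to 14.15 and 13.50 to 13.62 in PI365967. Limma called 8 of the 9 root markers lower in Moneymaker and 7 in PI365967, against 31.0% and 24.0% of all probe sets. The remaining root marker in Moneymaker, PT1, a phosphate transporter gene, was called higher there (0.30, limma adjusted p = 0.0035). In PI365967 PT1 had 0.01 and was not called. PT1 was the brightest of the 9 in every group (12.80 and 13.10 in Moneymaker without and with salt), so it weighs most in the sums. By single probe sets the root markers fell more in Moneymaker. Their median effect was −1.50 there and −0.92 in PI365967, and 8 of the 9 estimates were lower in Moneymaker. The leaf marker PSBR was not called in either genotype (−0.03 in Moneymaker and 0.06 in PI365967). The 25S ribosomal RNA control read 5.74 to 5.92 and 7.13 to 8.10 in unstressed and salt-treated Moneymaker, and 5.56 to 5.95 and 5.99 to 7.36 in PI365967. The 17S control read 5.17 to 5.28 and 5.56 to 6.13 in Moneymaker, and 5.34 to 5.56 and 4.87 to 6.05 in PI365967, where the groups overlapped and the salt mean was the lower. The mean log2 difference between 3′ and 5′ probe sets in Moneymaker went from 0.05 to 0.13 with salt for GAPDH and from 0.12 to −0.03 for actin; in PI365967 the means were 0.05 and 0.10 for GAPDH and 0.04 and 0.01 for actin. The part of these shifts in the results for the 26 was not tested.

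The authors' second log2 values held 20 of the 26. All 20 were negative in Moneymaker, from −2.08 to −0.50, and the PI365967 effects ran from −0.66 to 0.25. By these values 14 of the 20 fell by at least 1 in Moneymaker, 13 lay within 0.3 in PI365967 and 11 met both limits. LesAffx.70492.1.S1_at (−0.66) and LesAffx.10279.1.A1_at (−0.61) were the lowest in PI365967, and Les.3420.1.A1_at the weakest in Moneymaker (−0.50). For PETE (−1.04 and −0.21) and TGAS118 (−1.16 and −0.17, with the PI365967 value now below 0) they met both limits, and AUREA is not in that table.

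Membership depended on how the arrays were scaled. Without normalization the median effect of all probe sets was −0.25 in Moneymaker and 0.02 in PI365967, and 105 probe sets met the rule, 21 of them among the 26. All 26 were lower under salt in Moneymaker with no normalization, median centring, added values of 1 and 64, control probe sets kept in, and each of the 12 arrays left out in turn, the smallest fall being −0.39. Of these 17 settings, 7 probe sets met both limits in all: LesAffx.46519.1.S1_at, Les.1501.2.S1_at, Les.1501.1.A1_at, LesAffx.39.1.S1_at, LesAffx.10279.1.A1_at, Les.4981.1.S1_at and Les.4890.1.S1_at. For LesAffx.10279.1.A1_at the PI365967 limit was met at the bottom of the scale. TGAS118 was lost in 1 of the 12 settings that left out an array, PETE in 1 and AUREA in 5.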

How the data were processed

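The values analysed are the deposited intensity values, 1 per probe set and array, whose array medians ran from 332.8 to 633.2. The authors' background correction and summary of probes are not stated in the labels. The deposited log2 values behind the authors' SAM tables (8085 probe sets; how they were computed is unstated) served only as an alternative; their columns were matched to arrays by genotype, number and the plus sign read as salt. The 108 AFFX control probe sets were left out, intensities became log2(value + 16), and the 12 arrays were quantile normalized. Group means gave the members. Models with a mean per group and no covariates were fitted with limma 3.58.1 in R 4.3.3 (8 residual and 3.11 prior degrees of freedom), two-sided, with Benjamini-Hochberg adjustment over 10101 probe sets and a threshold of 0.05. The fit was tested on simulated data.

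The annotation names 702 probe sets. Every named member is described, with members nearest the limits; unnamed ones were chosen after their values were seen. Members and lists were chosen with earlier results of these data known. Deviations from group means of arrays with equal replicate numbers correlated at −0.13 to 0.16 over 18 pairs. In 1 pair of groups, unstressed Moneymaker and unstressed PI365967, all 3 exceeded 0.1 (0.116 to 0.1625), which was taken as pairing there. Elsewhere no pairing was assumed, but the limit of 0.1 is arbitrary. Unstressed and salt-treated Moneymaker had 0.03, 0.08 and 0.11, so pairing between them is undetermined. Alternatives are given in the closing section.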

Additional observations from a re-analysis of the deposited data

How the results depend on the processing

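The number of probe sets meeting the rule was 105 without normalization between arrays (21 shared with the 26) and 61 with an added value of 1 (20 shared), and 41 without replicate 2 of unstressed Moneymaker (25 shared); it ran from 21 to 41 as each array was left out. Median centring gave 21, an added value of 64 gave 18, and the authors' second log2 values gave 19. The causes were not tested. Without normalization 1 member in place of 4 was called higher in PI365967 without salt. Leaving out an array gave 12 to 13 higher and 9 to 11 lower for the average genotype difference, 4 to 5 and 11 to 13 without salt, and 13 to 15 and 3 under salt. With a replicate block in the fit these counts were 12 and 11, 4 and 12, and 14 and 3, as without it. In the 6 unstressed arrays alone, where the numbers were taken to pair the arrays, the block (added after seeing the data) gave 4 and 12. Of 147 counts recomputed 143 stayed within 1.5 times the reported one. Of 110 recomputed salt effects of the 3 named genes, 4 moved by more than the SD between replicates and none in Moneymaker changed sign; TGAS118 in PI365967 ran from −0.22 to 0.61 as single arrays were left out. Of the 4 that moved, the fall of AUREA became −1.31 without normalization and with an added value of 1 and −0.59 with 64, and PETE in PI365967 became −0.35 with median centring. Deposited values carry no detection call, so signal over background is unknown.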
